A study of Mus musculus with 6 samples.

Results

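The 10 transcription factors described here set the first cell lineages of the mouse embryo, and their promoters were followed in embryonic stem cells and in an oligodendrocyte progenitor line. The genes were Gata4, Gata6, Sox17, Foxa2, Mixl1, Eomes, T, Foxd3, Cdx2 and Elf5, 10 of the 21951 protein-coding genes and of the 55450 genes of the annotation. They were listed by name and by no rule on a measured value, but with earlier results of these data known. The measurement was cap analysis of gene expression (CAGE), which captures the capped 5′ end of an RNA and reads a short tag there, so that the position of a tag is a transcription start. It was made on nuclear RNA of the mouse embryonic stem cell line R08 (mESC, 3 libraries), grown without feeder cells in serum with leukemia inhibitory factor, and of Oli-neu cells (mOPC, 3 libraries), a cultured line that stands for oligodendrocyte progenitors and was expanded with T3, thyroxine, bFGF and PDGF-BB. Both groups were untreated lines, and each is 1 line, so that a difference between them is a difference between these lines in these media. The libraries held 16657021 to 37888141 tags in mESCs and 21925299 to 40928704 tags in mOPCs. A gene's level was the number of tags on its strand within 500 bp of any of its annotated 5′ ends, given as tags per 1000000 tags of the library (CPM).

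These factors act in the blastocyst and the gastrula. Gata6, Gata4 and Sox17 act in the primitive endoderm, and together with Foxa2 again in the definitive endoderm. Eomes, Mixl1 and T (Brachyury) act in the primitive streak, from which mesoderm and definitive endoderm arise, while Cdx2, Eomes and Elf5 act in the trophectoderm and its stem cells. Foxd3 acts in the epiblast and later in the neural crest, and is needed to keep embryonic stem cells undifferentiated. Cultures of embryonic stem cells in serum are known to hold cells that vary in such factors.

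In mESCs, 7 of the 10 genes had tags in every library, from 0.751 CPM for Mixl1 to 10.9 CPM for Gata4, and the other 3, Cdx2, T and Elf5, had 0 to 5 tags per library. By library, 9, 8 and 9 of the 10 had a tag in mESCs, beside 73.3%, 70.8% and 71.1% of all protein-coding genes. In mOPCs, the 10 genes together had 1, 1 and 3 tags in the 3 libraries. There, 63.2%, 64.5% and 66.0% of all protein-coding genes had a tag. Summed over the 10 genes, the level was 26.6, 32.4 and 28.1 CPM in the mESC libraries and 0.0456, 0.0347 and 0.0733 CPM in the mOPC libraries. The data come from bulk cultures, in which fewer cells that use a promoter and less RNA per cell cannot be told apart.

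The sequences around the strongest mESC starts of 5 genes are shown. The position and the shape of the starts, as described further on, differed between these promoters. They are written 5′ to 3′ on the gene's strand, in the GRCm38 (mm10) build. Capitals mark each base at which at least 5% of the gene's mESC promoter tags began. The stretches of Foxd3 (plus strand, chr4:99656088-99656187), Eomes (plus strand, chr9:118478139-118478218) and Foxa2 (minus strand, chr2:148045899-148045928) come from the promoter sequences of RefSeq, and those of Sox17 (minus strand, chr1:4493594-4493623) and Gata4 (minus strand, chr14:63245239-63245268) from transcript sequences of GENCODE.
Foxd3: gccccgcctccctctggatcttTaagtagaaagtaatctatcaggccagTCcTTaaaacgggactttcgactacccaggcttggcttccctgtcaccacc
Eomes: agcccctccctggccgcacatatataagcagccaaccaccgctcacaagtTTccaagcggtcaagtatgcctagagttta
Foxa2: aaattttaaaccgccatgcactcggctTCC
Sox17: gcggcccggggggaCacCCgcagtgtcact
Gata4: ccgggagCaggggacaagccggaggcccgC
The 5 capital bases of Foxd3 held 107 of its 189 mESC tags, and the 3 capital bases of Sox17 held 95 of its 156. The whole stretches held 77.2% of the mESC promoter tags for Foxd3, 78.0% for Foxa2 and 69.9% for Sox17. For Gata4 and Eomes they held less, 35.8% and 21.2%. No mOPC tag fell in any of the 5 stretches, which were cut around mESC starts. This says little, since the whole promoter windows held 2 mOPC tags for Gata4, 1 for Eomes and 0 for Foxd3, Foxa2 and Sox17.

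Gata4 and Gata6, zinc finger factors of the endoderm, had the highest levels. Gata4 (chr14:63198922-63271692, minus strand) had 365, 200 and 205 tags in the mESC libraries, or 9.63, 12.0 and 11.1 CPM, and 0, 1 and 1 tags in the mOPC libraries. Gata6 (chr18:11052064-11085635, plus strand) had 380, 178 and 180 tags in mESCs, or 10.0, 10.7 and 9.77 CPM, and 0 in each mOPC library. The groups did not overlap for either gene, and the 3 mESC libraries lay close together. Mean levels in mESCs were 10.9 ± 1.20 CPM for Gata4 and 10.2 ± 0.473 CPM for Gata6 (SD, n = 3). Over the pooled tags of each line, the Gata4 level was 484 times higher in mESCs, with a 95% exact binomial interval of 133 to 4002 that covers counting error only. Gata6, with 0 tags in mOPCs, was at least 309-fold higher in mESCs, taking as the floor 3 counts over the pooled mOPC libraries. Such values, here and below, leave out the counting error of the mESC tags. Among protein-coding genes, Gata4 stood above 57.7% to 60.1% of all genes in the mESC libraries and Gata6 above 57.7% to 58.7%, near the middle of the genes.

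Sox17 and Foxa2, an HMG box and a forkhead factor of the endoderm, were lower. Sox17 (chr1:4490931-4497354, minus strand) had 67, 48 and 41 tags in mESCs, or 1.77, 2.88 and 2.22 CPM, and 0 in each mOPC library. Foxa2 (chr2:148042877-148046969, minus strand) had 17, 20 and 13 tags, or 0.449, 1.20 and 0.705 CPM, and also 0 in each mOPC library. The mESC libraries of Foxa2 differed more from each other than those of the GATA factors did, with the second library highest and the first lowest. Sox17 was at least 65.3-fold and Foxa2 at least 20.9-fold higher in mESCs.

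Of the streak factors, Eomes and Mixl1 had starts in every mESC library and T did not. Eomes (chr9:118478212-118486132, plus strand), a T-box factor, had 50, 24 and 25 tags in mESCs, or 1.32, 1.44 and 1.36 CPM, and 0, 0 and 1 in mOPCs. Its pooled ratio was 124, with an exact binomial interval of 21.8 to 4962. Not all of its tags lay upstream of coding sequence. Of its mESC tags, 6, 6 and 4 began at chr9:118478819, chr9:118479289 and chr9:118478856, which are coding in an annotated transcript. Mixl1 (chr1:180693043-180697034, minus strand), a paired-type homeobox factor, had 20, 17 and 13 tags in mESCs, or 0.528, 1.02 and 0.705 CPM, and 0 in each mOPC library, which made it at least 20.9-fold higher. T (chr17:8434423-8442496, plus strand), the T-box factor of early mesoderm, had 3, 0 and 1 tags in mESCs and 0, 0 and 1 in mOPCs. The pooled ratio of T was 5.03 with an exact interval of 0.497 to 248, so a difference between the lines was not detectable at this depth.

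Foxd3 (chr4:99656299-99658622, plus strand), a forkhead factor with a single exon, had 101, 51 and 37 tags in mESCs, or 2.67, 3.06 and 2.01 CPM, and 0 in each mOPC library, at least 79.2-fold higher. Cdx2 and Elf5, which like Eomes act in the trophectoderm, were near the floor in both lines. Cdx2 (chr5:147300805-147307270, minus strand), a caudal homeobox factor, had 5, 1 and 0 tags in mESCs and 0 in each mOPC library, with 3 of the 6 tags at 1 position of 1 library. Set against the floor of 3 mOPC counts, its pooled level was 2.51-fold higher. With 6 tags this value is not a lower bound, since it leaves out the counting error of the mESC tags. Elf5 (chr2:103411688-103450989, plus strand), an ETS factor, had 0, 0 and 2 tags in mESCs and 1, 0 and 0 in mOPCs, a ratio of 2.51 with an exact interval of 0.131 to 148. The groups overlapped for T, Cdx2 and Elf5. With 3 counts as the floor, a count of 0 over the pooled libraries allowed up to 0.0411 CPM in mESCs and 0.0327 CPM in mOPCs.

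**Figure D1:**
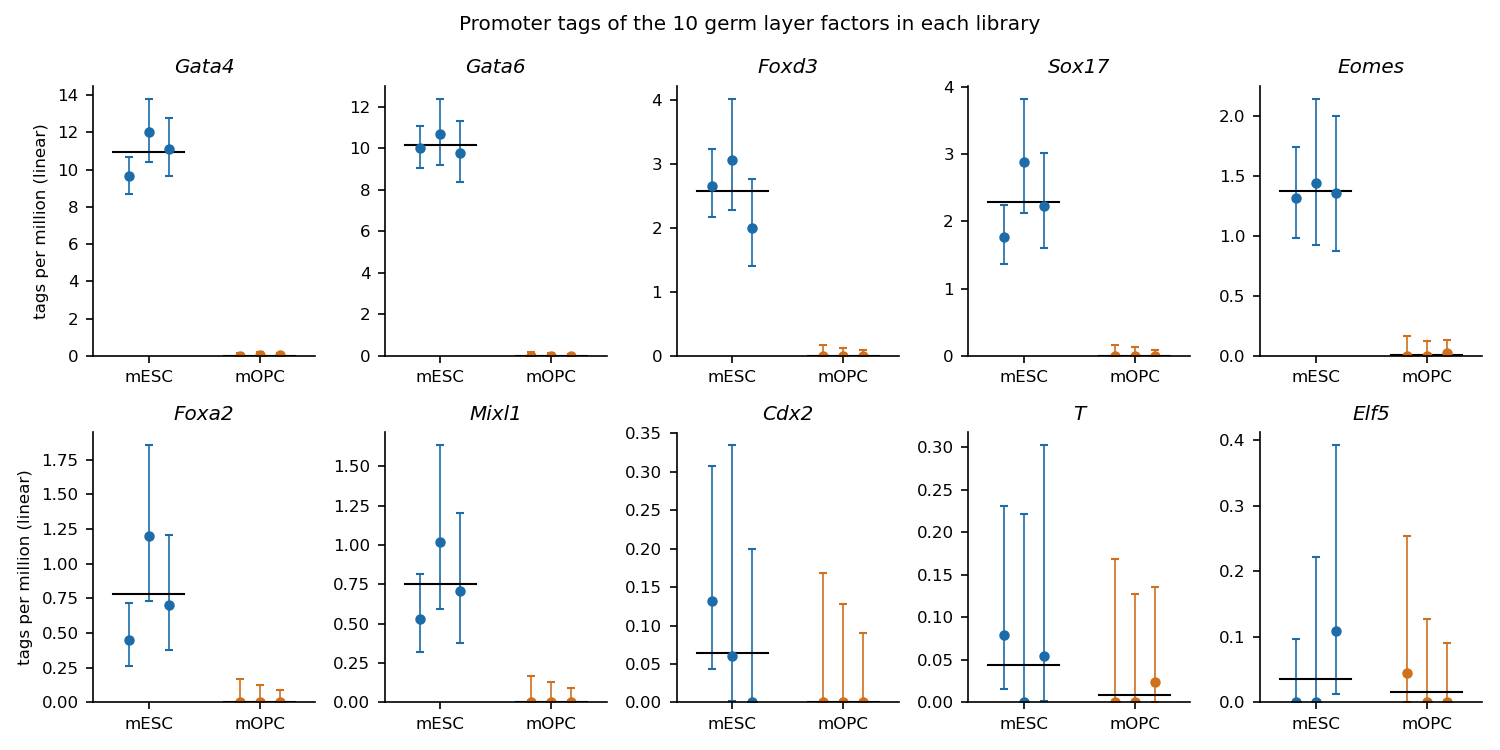
Promoter level in CPM (linear axis, scale differing between panels) of the 10 genes in each library, mESC in blue and mOPC in orange; points are the 3 libraries of a line, bars their 95% exact Poisson intervals of counting error, and the black line the mean. The 7 genes from Gata4 to Mixl1 lie above all mOPC libraries in every mESC library, while the libraries of Cdx2, T and Elf5 overlap. The share of all genes without such overlap was not counted. Of all genes tested, 48.9% were called higher in mESCs and 42.1% higher in mOPCs.

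To compare genes with different numbers of annotated 5′ ends, levels were divided by the length of their promoter windows. Gata4 (3.04 CPM per kb), Foxd3 (2.58) and Gata6 (2.55) formed the highest group in mESCs, and neighbours in that order overlapped between libraries. Eomes (0.832), Mixl1 (0.751) and Sox17 (0.726) came next and also overlapped with their neighbours. Foxa2 followed with 0.313 CPM per kb, below every library of the 3 genes before it, and Cdx2 (0.0639), T (0.0224) and Elf5 (0.00755) came last. In mOPCs, no order could be read from 5 tags in all.

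The fit across all 18490 genes with enough tags, by the quasi-likelihood test of edgeR with Benjamini-Hochberg adjustment, called all 7 members that it could test higher in mESCs. Differences on the log2 scale, mOPC over mESC, ran from -6.49 (SE 0.58, adjusted p = 2.0e-15) for Eomes to -11.13 (SE 0.41, adjusted p = 2.0e-31) for Gata6. For Gata4 the difference was -8.70 (SE 0.32, adjusted p = 2.9e-32). The test gives no SE, and each SE printed here and below is the difference divided by the square root of the F statistic. For genes with 0 tags in mOPCs, such as Gata6, the difference and its SE depend on the prior count of the fit. These differences are not bounds, and their SE does not measure how well they are known. These calls carry little information about the 10 genes as a group, because the lines differ so widely: 48.9% of all genes tested were called higher in mESCs and 42.1% higher in mOPCs. The 7 members passed the filter through their mESC libraries only, and of the 3134 genes that did so, 100% were called higher in mESCs. No member was called higher in mOPCs, by edgeR or DESeq2, and 0 were higher there at an unadjusted p under 0.05. Cdx2, T and Elf5 were not tested in that fit. An exact two-sided permutation test of their CPM gave p = 0.4, 0.4 and 1.0, where 3 libraries against 3 allow no p below 0.1. Each p-value measures the spread between libraries of 1 line, which may be technical. The name field of the files is the same for the 3 mESC libraries and differs from that of the 3 mOPC libraries, so whatever this name marks and the line cannot be told apart.

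Where transcription began differed between the members. Transcription of Gata4 started in 2 separate regions in mESCs. The region downstream (chr14:63244748-63245771) held 573 of its 770 tags, 73.7%, 72.5% and 77.6% in the 3 libraries, and the upstream region (chr14:63270624-63272192) held the other 197. Both were used in every mESC library and in similar proportions. The 2 mOPC tags of Gata4 fell in neither, but around another annotated 5′ end (chr14:63213107-63214107) at which no mESC tag began. The strongest downstream starts were spread, and the highest single position held 9.35% of the gene's tags.

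Sox17 also had 2 start regions, and the internal one dominated. The region at the 5′ ends of transcripts annotated to begin inside the gene (chr1:4493104-4494235) held 121 of 156 tags, 74.6%, 72.9% and 87.8% per library, against 35 tags at the outer 5′ ends (chr1:4495830-4497854). The strongest position of the internal region lay 5 bp before an annotated end, inside an exon of the UTR of another transcript. When only the transcripts tagged as basic in the annotation were used, the internal region dropped out and Sox17 had 17, 13 and 5 tags in the mESC libraries. Gata6 began most often 145 bp inside its nearest annotated 5′ end, at a position with 177 of 738 tags (94, 40 and 43 per library) that lies in a UTR exon. Its starts were spread, with the middle 80% of the tags over 858 bp and 32 tags each at 491 and 494 bp downstream of that position.

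Of these 7 genes, Foxd3 had the smallest share of its starts near the annotated 5′ end. Its strongest starts lay 161 and 159 bp before the annotated 5′ end, with 28 tags each, and 5.29% of its mESC tags lay within 100 bp of that end. Across 4169 protein-coding genes with 50 to 800 mESC tags, the range that holds the 7 members, the median share within 100 bp was 93.8% (quartiles 74.4% and 98.3%). With windows of 100 bp, Foxd3 kept 5, 3 and 2 tags and was not tested. Gata6 (32.7%), Mixl1 (38.0%) and Eomes (50.5%) also had less than the lower quartile within 100 bp, whereas Foxa2 (88.0%), Gata4 (92.2%) and Sox17 (95.5%) lay inside the quartiles.

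The members also differed in how sharp the starts were. Of the 7 genes, Foxa2 had the sharpest, with 56.0% of its tags at 1 position 49 bp inside an annotated 5′ end. That base lies in an exon of 1 annotated transcript and is coding there. That position held 11 of 17, 14 of 20 and 3 of 13 tags in the 3 libraries, so the third library showed it less. Sox17 had 30.8% of its tags at the strongest position, Foxd3 14.8% and Eomes 11.1%, where the median over the same 4169 genes was 16.9% (quartiles 11.8% and 25.7%). Mixl1 had no dominant start, and its 50 tags were spread over 30 positions, 18 of them with a single tag. The tags carry no molecular identifiers, so copies of 1 molecule cannot be told from separate molecules, and the part of copies in the sharp start of Foxa2 was not tested. Of the tags of Gata4, Gata6 and Sox17, 86.5%, 83.5% and 75.6% lay at positions seen in at least 2 mESC libraries, while none of the 4 tags of T and none of the 6 of Cdx2 did.

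**Figure D2:**
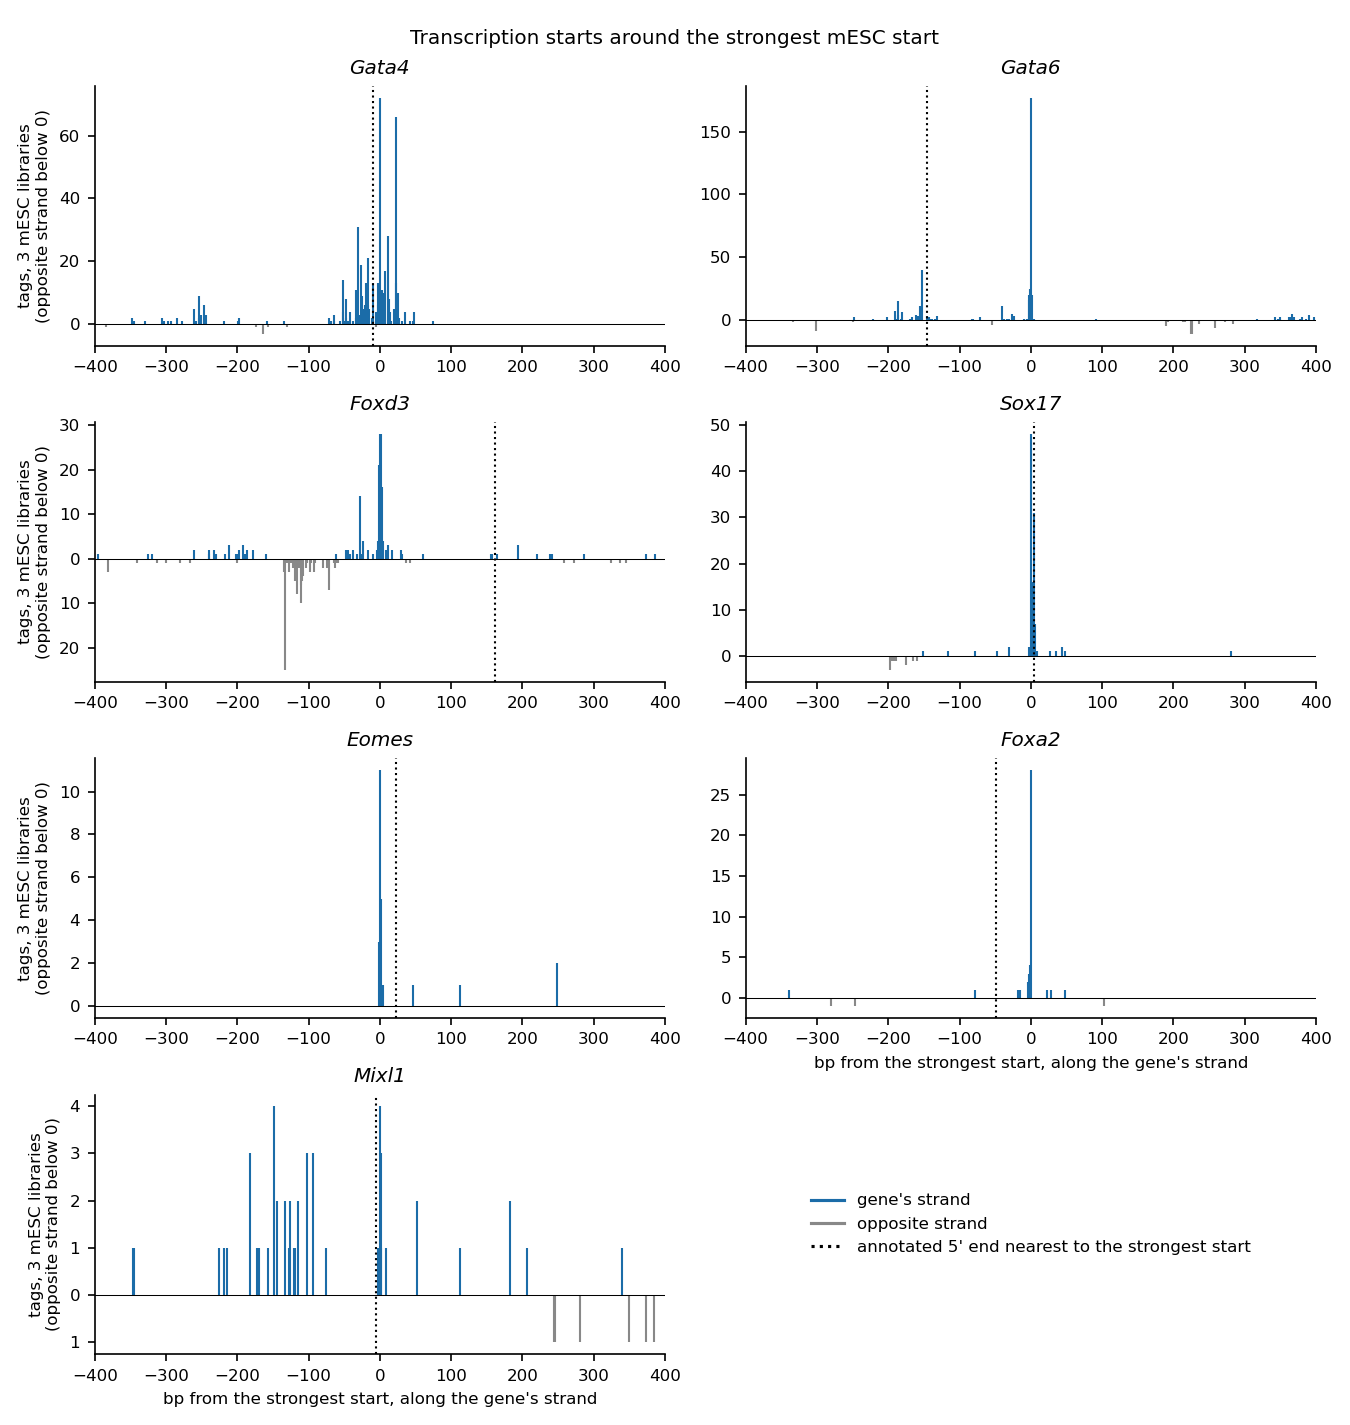
Tags at each position within 400 bp of the strongest start of the 7 genes with tags in every mESC library, summed over the 3 mESC libraries (linear axes); the x axis is the distance in bp along the gene's strand, blue lines rise for the gene's strand, grey lines fall for the opposite strand, and the dotted line is the annotated 5′ end nearest to the strongest start. Foxa2 and Sox17 show 1 narrow peak and Mixl1 a scatter of positions with up to 4 tags. Foxd3 shows a peak 161 bp before its annotated end with opposite-strand starts upstream of it. The second regions of Gata4 and Sox17 and part of the Gata6 and Eomes starts lie outside the range drawn.

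Starts on the strand opposite to the gene were counted around all 7 genes in mESCs, and Foxd3 had the largest share of them. Within 500 bp of the annotated 5′ end, 120 tags around Foxd3 were on the opposite strand (64, 28 and 28 per library) beside 189 on its own, a share of 38.8% with a 95% exact binomial interval of 33.4% to 44.5%. The median share over the 4169 genes was 7.06% (quartiles 2.50% and 19.5%). The strongest opposite position, with 25 tags, lay 133 bp upstream of the strongest Foxd3 start. Within 500 bp, Foxa2 followed with 21.9% (14 tags against 50, interval 12.5% to 34.0%), also above the upper quartile. Sox17 (16.1%, 30 tags), Mixl1 (15.3%, 9 tags), Gata6 (11.9%, 100 tags) and Eomes (8.33%, 9 tags) lay inside the quartiles, and Gata4 had 1.16%, 9 tags against 770, below them. The share of Gata6 was larger in the wider window, 30.8% within 2000 bp, the same stretch in which the noncoding RNA 1010001N08Rik is annotated on the other strand. 1010001N08Rik itself had 167, 92 and 76 tags in mESCs and 0 in each mOPC library, at least 140-fold higher.

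Other noncoding genes near the members had tags too, most of them in mESCs. The lincRNA 9030622O22Rik, on the strand of Foxa2 and 5261 bp from it by their 5′ ends, had 32, 7 and 15 tags in mESCs and 0 in mOPCs. Gm33460, antisense and 10238 bp from Eomes, had 18, 12 and 10 tags in mESCs and 0, 1 and 2 in mOPCs. Gm37587, on the strand opposite to Sox17 and 120 bp from it, had 15, 1 and 4 tags in mESCs and 0 in mOPCs. Near Foxd3, the lincRNA Gm12688 on the opposite strand had 33, 7 and 6 tags in mESCs and 0 in mOPCs. Gm12682, annotated as antisense and 56673 bp from Foxd3 by their 5′ ends, went the other way, with 0 tags in mESCs and 7, 9 and 12 in mOPCs. The miRNA gene Gm23366 is annotated inside Foxd3 on the same strand, and the 35, 17 and 19 mESC tags of its window (0 in mOPCs) cannot be told apart from tags of Foxd3 itself. No tag within the 500 bp windows of the 10 genes was shared with the window of another gene on the same strand, since leaving out shared tags changed no count.

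Whether such low counts exceed the tags scattered around a gene was examined by density. In mESCs, the promoter windows of 8 of the 10 genes held more tags per kb than flanks 5 to 50 kb away on the same strand, with 95% exact Poisson intervals that did not overlap. The windows of Gata4 had 2.94 CPM per kb in the pooled libraries, 52.1 times its flanks, and those of Sox17 had 0.677 CPM per kb, 880 times its flanks. Foxa2 exceeded its flanks 127 times, Gata6 315 times, Foxd3 24.2 times, Mixl1 23.1 times and Eomes 20.6 times. The size of these ratios depended on the flanks chosen, and with flanks 2 to 20 kb away they were 1779 for Sox17, 300 for Mixl1, 136 for Gata6, 100 for Gata4, 84.8 for Foxa2, 40.3 for Eomes and 9.30 for Foxd3, and Cdx2 went from 10.5 to 5.21. Cdx2, in spite of its 6 tags, had 0.0821 CPM per kb (interval 0.0301 to 0.179) against 0.00786 (0.00581 to 0.0104) in its flanks. Its tags were 5, 1 and 0 per library, with no position seen in 2 libraries. The pooled interval covers counting error only, so the place of Cdx2 among the 8 is uncertain. The intervals of T and Elf5 overlapped those of their flanks. In mOPCs, none of the 10 genes had windows above its flanks with intervals apart. The flanks 5 to 50 kb away from Gata4, Eomes, Mixl1, T and Elf5 held 0.0400 to 0.0516 CPM per kb in that line. Flanks 2 to 20 kb away held 0.00324, 0.00122, 0.00333, 0.0421 and 0.00485, in the same order of genes.

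Outside its promoter windows, Elf5 had more tags in mOPCs than in mESCs. The rest of the gene held 5, 7 and 10 mOPC tags against 0, 2 and 0 in mESCs, which is 0.00685 CPM per kb (interval 0.00430 to 0.0104) against 0.000783 (9.5e-05 to 0.00283). These intervals did not overlap. The density in mOPCs was below that of the Elf5 flanks 5 to 50 kb away in the same line, 0.0400 CPM per kb. It was not below that of the flanks 2 to 20 kb away, 0.00485 CPM per kb (interval 0.00277 to 0.00787), and those intervals overlapped. The rest of Eomes held 3 tags in mESCs (3, 0 and 0) and 4 in mOPCs (1, 1 and 2), with intervals that overlapped. The body of Gata4 held 170 tags in mESCs and 24 in mOPCs, the latter spread over 69.677 kb.

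**Figure D3:**
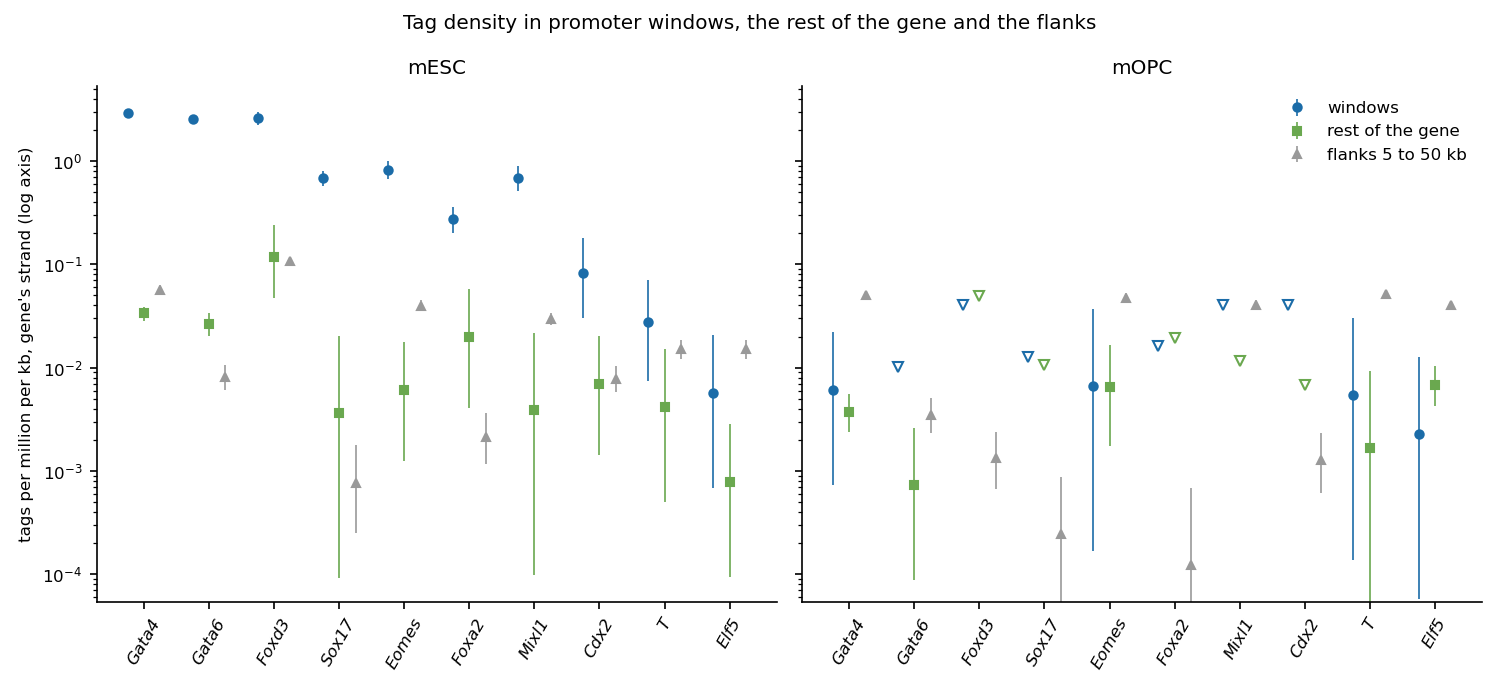
CPM per kb on the gene's strand (log axis) in the promoter windows, the rest of the gene and the flanks 5 to 50 kb away, pooled over the 3 libraries of each line with 95% exact Poisson intervals; open triangles are upper limits where no tag was counted. In mESCs the windows of 8 genes lie above both other regions with intervals that do not overlap, and in mOPCs no window does.

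The promoter table of RefSeq, which spans 250 bp before to 50 bp after a start, held 6 of the 10 genes. In the promoter of Eomes, the letters TATAA began 28 bases before the strongest mESC start, and they can be read in the stretch printed above from base 23. That start held 11 of the 99 mESC tags of Eomes, and the printed stretch 21. TATAA, searched on both strands, occurred in 21.9% of the promoters of protein-coding genes. The promoters of Foxd3, T and Cdx2 did not hold these letters, while 1 of 3 promoters of Foxa2 and 1 of 2 of Elf5 did. CpG dinucleotides stood at 0.793 of the number that base composition gives in the Foxd3 promoter and at 0.110 in the outer Elf5 promoter, where the median of coding promoters was 0.567. In the promoter of Foxa2 that holds 40 of its 50 mESC tags, this ratio was 0.767.

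To place the 10 genes among others that act in the same lineages, 51 further genes were read in 4 lists. Of the 14 genes of the primitive streak and mesoderm, 6 were tested, of which 3 were called higher in mESCs and 3 in mOPCs, with a median log2 difference of -2.36. In mESCs, the repressor Snai1 (5.63 ± 1.19 CPM), the somite factor Mesp2 (2.03 ± 0.307) and the heart factor Tbx20 (1.77 ± 0.526) were higher. In mOPCs, the homeobox genes Lhx1 (4.80 ± 0.459 CPM) and Gsc (1.04 ± 0.244) and the forkhead gene Foxf1 (2.33 ± 0.103) were higher, so that genes of the streak list were not all silent in this line. The median over all genes tested was -0.19, and the percentages called over all genes, given above, apply to these lists too.

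Of the 12 endoderm genes, 9 were tested, and 7 were called higher in mESCs and 2 in mOPCs, with a median of -7.29. Hhex (34.0 ± 0.497 CPM), a homeobox factor of early endoderm, stood above Gata4 and Gata6 in mESCs, and Sox7 (8.37 ± 1.63) and Hnf4a (1.30 ± 0.126) were in the range of the members. Prox1 was the exception in size, with 61.9 ± 1.70 CPM in mOPCs and 0.600 ± 0.179 in mESCs, and it is also known in neural and oligodendrocyte lineages. Onecut1 was higher in mOPCs by 1.16 on the log2 scale (SE 0.14, adjusted p = 3.5e-11, edgeR).

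Of the 11 trophectoderm and trophoblast genes, 9 were tested, 6 were called higher in mESCs and 2 in mOPCs, and 1, Gata2, was not called, with a median of -6.13. Tfap2c (19.5 ± 2.40 CPM) and Tead4 (13.8 ± 0.912), which act upstream of or beside Cdx2 in the trophectoderm, had far more tags in mESCs than Cdx2 itself. Ascl2 (3.29 ± 0.847) and Hand1 (1.04 ± 0.460), trophoblast factors of the bHLH family, were also higher in mESCs. In mOPCs, Tfap2a (12.5 ± 1.06 CPM, 0.0914 ± 0.0272 in mESCs) and Ets2 (24.1 ± 2.43 against 19.4 ± 0.0907) were higher.

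Of the 14 ectoderm and epiblast genes, 10 were tested, with 5 called higher in mESCs, 4 in mOPCs and 1, Zic5, not called, and a median of -4.83. Gbx2 (39.0 ± 4.20 CPM), Otx2 (11.7 ± 0.356) and Hesx1 (4.57 ± 0.254) were higher in mESCs. Lhx2 (4.95 ± 0.369), Zic2 (3.78 ± 0.473), Sox3 (7.12 ± 1.03) and Pax6 (2.16 ± 0.678) were higher in mOPCs. Pax6 had 1.34 ± 0.127 CPM in mESCs, and its difference was the smallest of these, 0.69 on the log2 scale (SE 0.23, adjusted p = 0.0044, edgeR). The call of Pax6 was lost with DESeq2 (adjusted p = 0.068), over the whole gene (0.073) and with single tags left out (0.47), and with windows of 100 bp the difference turned to -0.044.

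**Figure D4:**
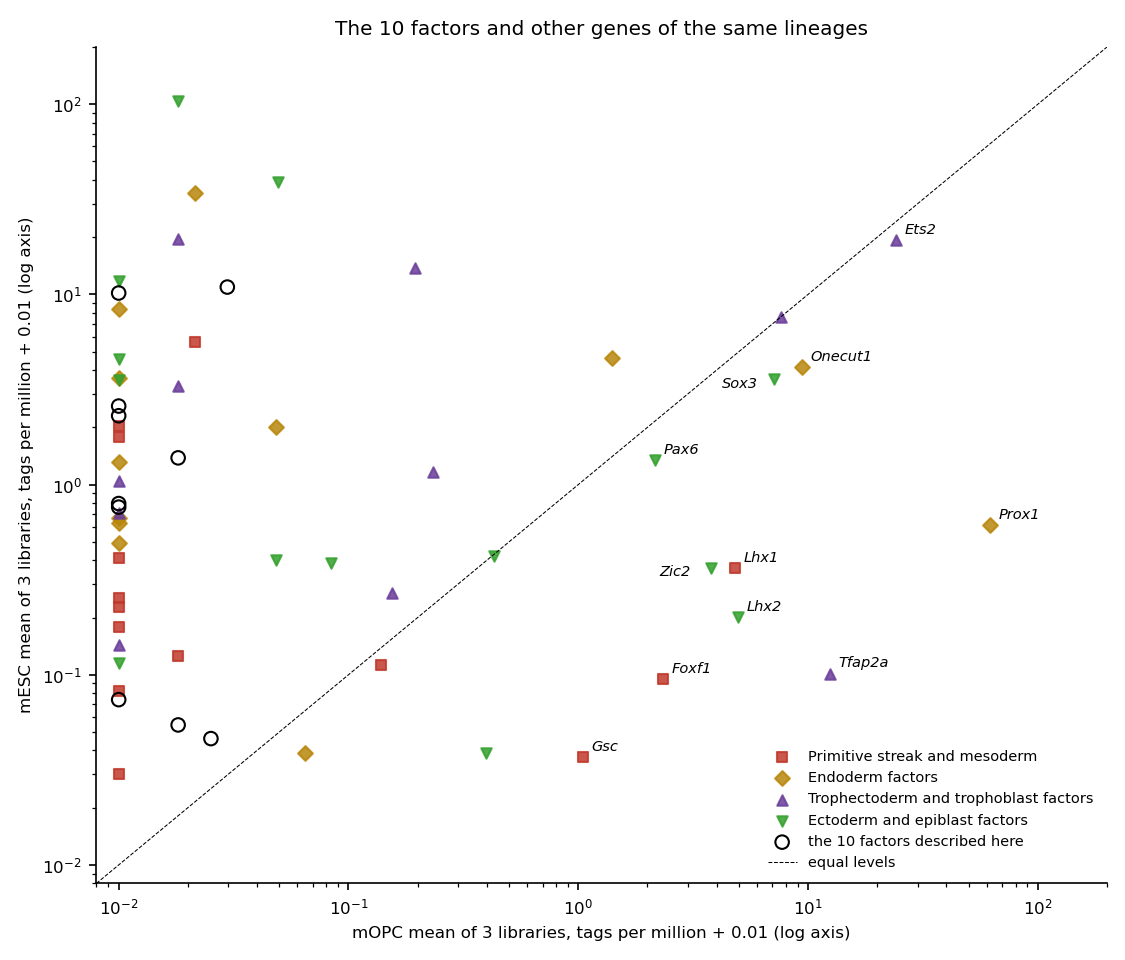
Mean CPM over the 3 libraries of each line, mESC against mOPC, both on log axes with 0.01 added, for the 51 further genes by list (filled symbols) and the 10 factors (open circles); the dashed line marks equal levels. The 10 factors lie above the dashed line near the left edge, those of Cdx2, T and Elf5 from few tags, and genes of each list, among them Prox1, Tfap2a, Lhx2 and Foxf1, lie below it.

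The lines were checked against their markers. The 8 mESC markers, Pou5f1 and Nanog among them, summed to 2885 to 3020 CPM in mESCs and 41.2 to 46.0 in mOPCs, and the 8 mOPC markers to 10.4 to 11.6 and 2976 to 3182 CPM. Gpr17 was at 0 in all mESC libraries, and Pou5f1, Nanog, Zfp42, Tdgf1 and Dppa4 at 0 in all mOPC libraries.

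Genes of differentiated cells moved in part with the members. Of 12 markers of visceral and parietal endoderm, 8 were tested, 6 of them were called higher in mESCs and 2, Dab2 (47.5 ± 6.31 CPM in mESCs, 58.7 ± 3.10 in mOPCs) and Sparc (59.1 ± 1.95 and 72.5 ± 5.51), higher in mOPCs, and the list summed to 511 to 553 CPM in mESCs and 147 to 160 in mOPCs. Col4a1 (250 ± 10.8 CPM), Lrp2 (82.2 ± 4.46) and Lama1 (68.5 ± 2.97) made up most of the mESC sum. Cubn (18.3 ± 2.28 CPM), Amn (4.92 ± 0.864) and Apob (1.67 ± 0.203) were also called higher in mESCs, with 0, 1 and 0 tags in the pooled mOPC libraries. Afp was at 0 in every mESC library, and Ttr had 1, 1 and 0 tags, Apoa1 4, 1 and 1 and Thbd 9, 3 and 2. Of 8 trophoblast markers, Prl3d1, Prl2c2 and Tpbpa were at 0 in all 6 libraries, 2 of 2 tested were higher in mESCs, and the sum of 33.5 to 35.9 CPM in mESCs was nearly all Cdh3 (33.8 ± 1.16). Of 8 fibroblast markers, Col3a1, Dcn, Lum and Prrx1 were at 0 in all mESC libraries, 3 of 4 tested were called higher in mOPCs and 1 in mESCs, and the sum was 4.01 to 4.38 CPM in mESCs and 25.3 to 31.9 in mOPCs. The part of differentiated cells in the levels of the 10 genes was not tested.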

How the data were processed

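CAGE libraries of nuclear RNA were analysed for 3 mESC and 3 mOPC libraries. The authors' deposited values are counts, 1 line per position and strand with the number of tags that begin there, without normalization. Per the methods of the study, reads were split by barcode, trimmed and aligned to mm10 with unique alignments kept; bowtie is named there, whereas the submitters' processing notes name CASAVA 1.8 and BWA 0.5.9, so the aligner is uncertain. No step that removes duplicates is stated. Totals per library were 16657021 to 40928704 tags, so that 1 tag is worth more in smaller libraries, and intervals cover counting error only.

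Tags were summed per gene on its strand within 500 bp of each 5′ end in GENCODE vM21, which is later than the release the authors used. Counts were fitted with the quasi-likelihood test of edgeR 4.0.16 in R 4.3.3 (robust, TMM on the totals of all tags, filterByExpr with a minimum count of 10), with Benjamini-Hochberg adjustment over 18490 genes and calls at an adjusted p under 0.05. The fit was tested on simulated data. Positions, densities and exact tests were computed in scipy 1.17.1 and pandas 2.3.3 (numpy 2.4.6, Python 3.11.15), with matplotlib 3.10.9 for the figures. Alternatives were DESeq2 1.42.0, other scalings, filters, windows and annotated ends, thinned libraries, a replicate block and each library left out. Replicate numbers were not taken as pairs: deviations of libraries with the same number correlated at 0.0113, 0.0614 and 0.0137. Replicates differed beyond counting noise (chi-square per degree of freedom 4.66 to 11.7), so none was counted as a copy.

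The 10 genes, the 4 lists and the marker lists were chosen with earlier results of these data known, so no count over them is independent support. Of each list, the genes named are those called, up to 4 per direction by smallest adjusted p, of which some are not reported here; the neighbouring genes, the genes that were not called and the marker genes with values were named after their values were seen. The RNA-DNA interaction data of the study were not used here.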

Additional observations from a re-analysis of the deposited data

How the results depend on the processing

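The 7 calls among the 10 genes, all higher in mESCs, ranged from 5 to 8 over 19 alternatives, and 0 were called higher in mOPCs under each of them. With windows of 100 bp, 5 were called, since Foxd3 and Mixl1 no longer passed the filter. With single tags left out or with thinned libraries 5 were called, without Foxa2 and Mixl1, with basic transcripts 6, without Sox17, and without a filter 8 were, since Cdx2 was then called (-4.17, adjusted p = 0.023, edgeR), a call that DESeq2 did not make (adjusted p = 0.21). Leaving out each library in turn gave 7 each time. T and Elf5 were called under no alternative that tested them, with an adjusted p of up to 0.27 and 0.60. The replicate block left the count of members at 7 and gave 9039 genes higher in mESCs and 7794 in mOPCs, against 9044 and 7788 without the pairing. Of the further genes of the 4 lists, 21 were called higher in mESCs and 11 in mOPCs, 32 and 12 without a filter, 14 and 11 with windows of 100 bp, and 21 to 26 and 11 to 12 with a library left out. Pax6 turned to -0.044 with windows of 100 bp, and its call was lost with DESeq2 (0.66), the whole gene (0.40) and single tags left out (0.27); the causes were not tested. The median log2 difference of all genes was -0.19, and -0.08 with library totals less the strongest position, which held 5.38% to 5.92% of mOPC tags and 0.508% to 0.667% of mESC tags. The 8 genes with windows above flanks stayed 8 with flanks of 2 to 20 kb, Cdx2 among them with 6 tags only. With 2000 bp around the 5′ ends, the opposite-strand share of Foxd3 was 53.5% and that of Cdx2 10.0% of its few tags. Depth limits T, Cdx2 and Elf5 most: in the pooled mOPC libraries, 0 tags allow up to 0.0327 CPM (3 counts).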
